A study of Drosophila melanogaster with 12 samples.

Results

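The proteasome subunit genes of Drosophila melanogaster were taken by symbol: every gene named Prosalpha, Prosbeta, Rpn or Rpt for which the array carries a probe set with 1 gene symbol. The rule used names and no measured value, and it gave 40 of the 11982 genes measured under 1 symbol. Of these, 26 encode common subunits, 4 are paralogs whose symbols carry a T, and 10 are paralogs whose symbols carry an R. Each of the 40 was measured by 1 probe set. Prosalpha1, Prosalpha1R, Prosbeta1, Rpn9, Rpn10, Rpt1, Rpt6 and Rpt6R were not analysed here.

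RNA was isolated from Kc167, a line grown from Drosophila embryos, and was read on 12 Affymetrix arrays in 4 groups of 3. The groups are cells given double-stranded RNA (dsRNA) against PTIP, cells given dsRNA against Pc and ph (Pc/ph), cells given dsRNA against Pc, ph and PTIP (Pc/ph+PTIP), and cells alone (control). Each well of a 6-well plate held 1000000 cells. The labels give 15 µg of dsRNA a well, 5% serum 1 hour later and 6 days of culture, and name no dsRNA for the control. PTIP has BRCT domains and belongs to complexes that methylate histone H3, while Pc and ph encode Polycomb repressors. The question of the series is what PTIP does at genes under Polycomb control.

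The 26S proteasome is the protease that degrades proteins tagged with ubiquitin. Its barrel-shaped 20S core is built of stacked rings of alpha subunits, which gate the entry, and beta subunits, some of which hold the active sites. The 19S cap binds ubiquitin chains, removes them and unfolds the substrate with a ring of Rpt ATPases, while the Rpn subunits form its scaffold, receptors and deubiquitinase. In flies several core and cap subunits have paralogs with testis-biased expression, and Nrf-type factors encoded by cnc raise subunit transcription when proteasomes are impaired.

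All values are log2 signal intensities, so a difference of 1 is a doubling. Array medians were 5.62 to 5.77 in replicate 1, whichever the group, and 5.83 to 5.88 in replicates 2 and 3. Kc167 is a female line, and the highest value among 7 measured Y-linked genes, 5.11 to 5.57 by array, served as background. Kc167 cells resemble hemocytes, and all 10 hemocyte markers exceeded that background on all 12 arrays. So did 7574 of all 11982 genes, while 1941 exceeded it on 0 arrays, so such counts tell little about cell type. Of 14 measured testis markers 5 exceeded it on all 12 arrays (bam, aly, mia, topi and Mst98Ca) and 5 on 0, with a summed log2 level of 10.18 to 10.73 in PTIP, 10.08 to 10.59 in Pc/ph, 10.18 to 10.71 in Pc/ph+PTIP and 10.18 to 10.59 in control arrays. All 3 measured neuron markers (elav, nSyb and brp) exceeded it on all 12 arrays, with a summed log2 level of 8.49 to 9.17 in PTIP, 8.53 to 10.19 in Pc/ph, 8.72 to 9.59 in Pc/ph+PTIP and 8.56 to 9.91 in control arrays.

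The targeted genes Pc and Ptip check the labels, and ph was not examined. Pc had 6.18, 6.96 and 7.18 in Pc/ph cells, against 8.38, 9.46 and 9.47 in control cells, a log2 change of -2.33 ± 0.20 (SE, limma adjusted p = 2.51e-04, and 0.494 with no block for the replicate number). In Pc/ph+PTIP cells Pc had 7.24, 8.86 and 8.98 and stood 1.59 above Pc/ph cells (limma adjusted p = 0.00208, and 0.995 with no block). Its change of -0.74 against control did not pass (limma adjusted p = 0.0601). Ptip had 7.44, 8.34 and 7.82 in PTIP cells and 7.15, 8.06 and 8.41 in Pc/ph+PTIP cells, against 7.97, 8.01 and 8.29 in Pc/ph cells and 8.16, 8.52 and 8.26 in control cells. Neither Ptip difference passed the test: PTIP against control gave -0.45 ± 0.21 (limma adjusted p = 0.296) and Pc/ph+PTIP against Pc/ph gave -0.22 ± 0.21 (limma adjusted p = 0.749). The Pc/ph+PTIP replicate 3 array goes against its label in Ptip, being above the same-numbered Pc/ph and control arrays, and the replicate 2 array is above its Pc/ph counterpart, so what follows compares arrays as labelled.

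The common subunits were strongly expressed in every sample. All 26 lay above the Y-linked background on all 12 arrays, between 10.60 and 13.80, and no T paralog exceeded 6.37. Within a gene, the range over the 8 arrays of replicates 2 and 3 had a median of 0.28 over the 26 genes, near the 0.32 of all genes and of the 899 genes whose mean signal lay within that of the common subunits.

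**Figure D1:**
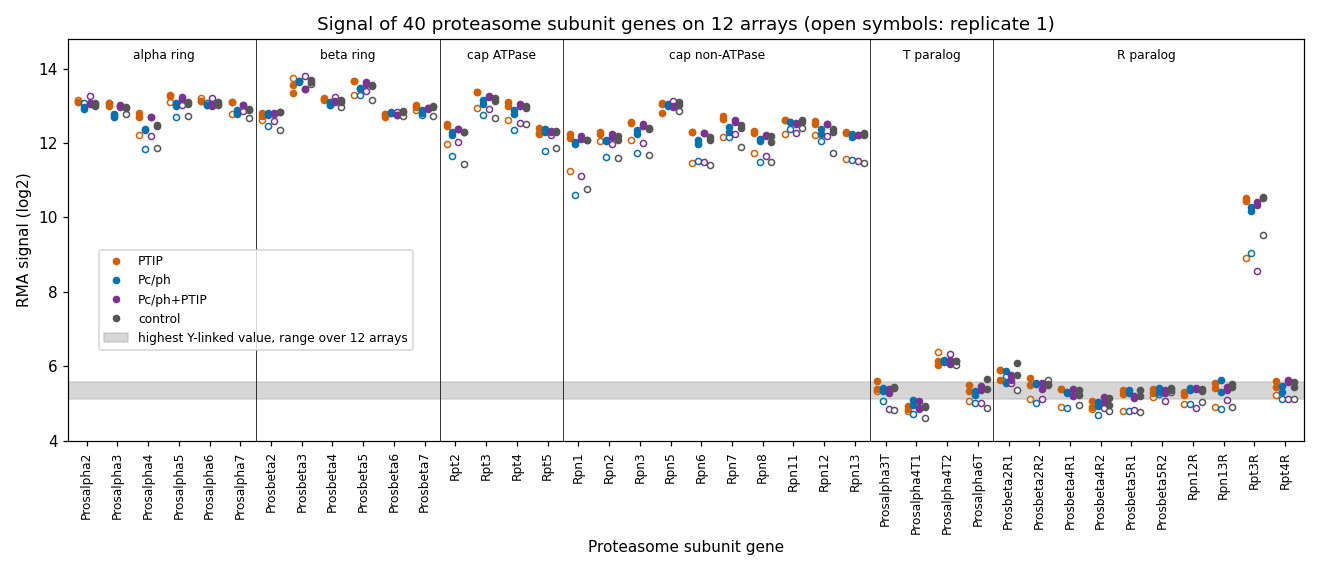
RMA signal (log2, vertical axis) of the 40 proteasome subunit genes (horizontal axis) on each of the 12 arrays, coloured by group, with open symbols for replicate 1 and a grey band for the highest Y-linked value by array. The 26 common subunits lie between 10.60 and 13.80, Rpt3R is the paralog far above the band, and open symbols fall below the filled ones for most cap genes.

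Cells given PTIP dsRNA had slightly higher signal than control cells for most common subunits, at a median log2 change of 0.14, or 1.10-fold. The changes ran from -0.09 to 0.30, 22 of 26 were above 0, and 18 of 26 were higher in all 3 same-numbered pairs of arrays while 0 were lower in all 3. In the same comparison 22.0% of all probe sets were higher in all 3 pairs and 15.4% lower. Among the 899 genes at similar signal, which include the common subunits, 29.8% were higher and 28.1% lower. The median change was 0.03 over all genes and -0.01 over those 899. By replicate the median difference of the common subunits was 0.23, 0.08 and 0.10, so the replicate 1 pair differed most. Over the 899 genes it was -0.13, 0.05 and 0.05, so the common subunits stood apart from them mainly in replicate 1. The summed log2 level of the 10 hemocyte markers was 15.02 to 15.85 in PTIP, 15.48 to 16.16 in Pc/ph, 14.95 to 15.89 in Pc/ph+PTIP and 15.42 to 16.18 in control arrays, with both ends of the range lower in the groups given PTIP dsRNA, though the ranges overlap. Its part in the subunit differences was not tested. In bulk RNA, fewer cells of a type and less RNA per cell cannot be told apart.

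Only 1 of the 40 members, Prosalpha4, passed the limma test with the replicate number as a block and Benjamini-Hochberg adjustment over 18769 probe sets at an adjusted p of 0.05, where 6.52% of all probe sets passed. That share of members is below the background share. At an unadjusted p of 0.05 the count was 11 of 40, or 27.5%, where 18.2% of all probe sets passed. Of the 26 common subunits 10, or 38.5%, passed, beside 39.3% of the 899 genes at similar signal. Without the block 0 members passed, where 0.272% of all probe sets did, and 0 had an unadjusted p under 0.05, where 4.12% of all probe sets did. After quantile normalization 7 members passed (Prosalpha4, Prosalpha5, Prosalpha7, Rpt3, Rpn3, Rpn7 and Rpn12), where 9.54% of all probe sets passed, and leaving out each array in turn gave 0 to 2. With the block, the 95% intervals of the 26 common subunits, each taken alone, ran from -0.32 to 0.52, that is from 0.80-fold to 1.44-fold. Without it the SE was larger, for example 0.24 against 0.06 for Prosalpha4, so these limits hold only with the block.

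All 6 measured alpha genes were higher in 3 of 3 pairs in PTIP cells, with a median change of 0.16. Prosalpha4, an alpha-ring subunit of the core, had 12.22, 12.70 and 12.82 in PTIP cells, against 11.87, 12.47 and 12.49 in control cells. Within each replicate number the PTIP array was the higher, while the unmatched ranges overlap because PTIP replicate 1 lay below control replicates 2 and 3. Prosalpha4 rose by 0.30 ± 0.06 (SE, 1.23-fold, 95% interval 0.16 to 0.45, limma adjusted p = 0.0217). Without the block its SE was 0.24 and its limma adjusted p was 1. The call was also lost when PTIP replicate 3 (adjusted p = 0.107) or control replicate 1 (0.0994), 2 (0.0607) or 3 (0.0683) was left out.

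Prosalpha5 had 13.11, 13.27 and 13.30 in PTIP cells, against 12.73, 13.11 and 13.06 in control cells. The groups touch at 13.11, and the difference of 0.26 ± 0.07 did not pass (limma adjusted p = 0.0624). The genes at the middle of the alpha ring were Prosalpha3 at 0.15 ± 0.07 and Prosalpha7 at 0.18 ± 0.07. Prosalpha2 and Prosalpha6, at 0.09 each, differed least.

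The beta subunits had a median change of 0.06, and Prosbeta5 was the 1 of 6 higher in 3 of 3 pairs. Their median difference by replicate was 0.16, -0.02 and -0.03, so it was above 0 in the replicate 1 pair only. Prosbeta5, which carries the chymotrypsin-like active site, had 13.30, 13.66 and 13.68 in PTIP cells, against 13.16, 13.55 and 13.54 in control cells, a change of 0.13 ± 0.07 (limma adjusted p = 0.381). Prosbeta2, which carries the trypsin-like site, gave 0.04 ± 0.08, and Prosbeta7, a structural beta subunit, gave 0.07 ± 0.07. Prosbeta3, a structural subunit, had 13.75, 13.56 and 13.34 in PTIP cells, against 13.59, 13.70 and 13.64 in control cells. Its replicate 1 pair and its other pairs point in opposite directions, and the change was -0.09 ± 0.10 (limma adjusted p = 0.736).

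The cap genes had a median change of 0.21, against 0.09 for the core, and 11 of 14 were higher in 3 of 3 pairs. The difference between cap and core was not tested. Among the ATPases, with a median of 0.18, Rpt2, whose tail helps open the core gate in yeast, had 11.97, 12.46 and 12.52 in PTIP cells, against 11.44, 12.30 and 12.30 in control cells. The difference of 0.30 ± 0.10 did not pass (limma adjusted p = 0.11), and the replicate 1 pair was the widest apart, at 0.54. Rpt5 and Rpt3, the middle ATPases, gave 0.13 ± 0.11 and 0.22 ± 0.07.

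Among the non-ATPases the median was 0.22 and 8 of 10 were higher in 3 of 3 pairs. Rpn12, a lid subunit, had 12.21, 12.50 and 12.60 in PTIP cells, against 11.73, 12.29 and 12.39 in control cells, a difference of 0.30 ± 0.08 (limma adjusted p = 0.0632). Rpn7, another lid subunit, differed by nearly the same amount in each pair, 0.25, 0.24 and 0.25, with a fitted change of 0.25 ± 0.09 (limma adjusted p = 0.163). Rpn8, the partner of the deubiquitinase Rpn11, and Rpn1, a scaffold that docks ubiquitin receptors, stood at the middle with 0.20 ± 0.07 and 0.23 ± 0.11. Rpn11 itself, which removes the chain during degradation, had 12.24, 12.61 and 12.61 in PTIP cells, against 12.41, 12.61 and 12.56 in control cells. Rpn11 and Rpn5 had no upward difference, at -0.04 ± 0.07 and -0.01 ± 0.09.

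**Figure D2:**
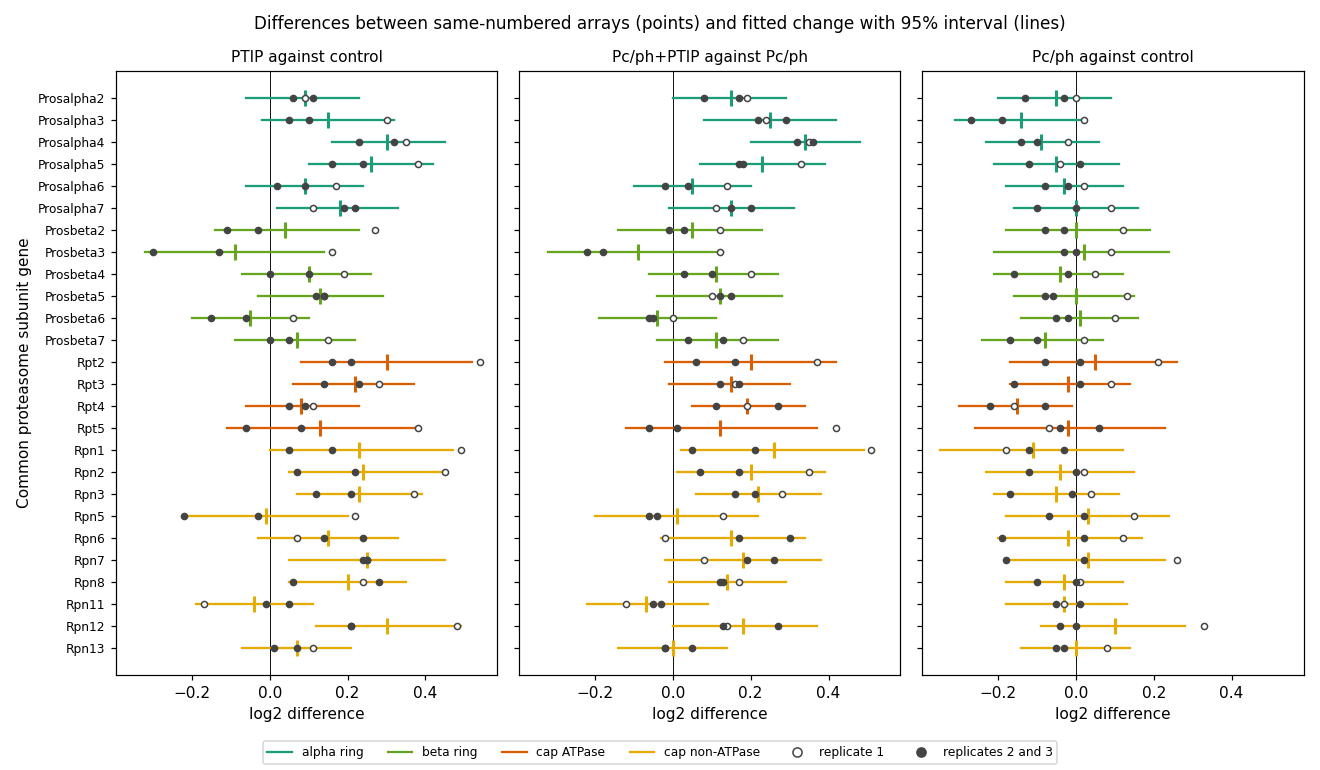
Log2 differences between same-numbered arrays (points, open for replicate 1) and the fitted change with its 95% interval (tick and line) for the 26 common subunits (vertical axis), in PTIP against control, Pc/ph+PTIP against Pc/ph and Pc/ph against control. Prosalpha4 lies at 0.30 and 0.34 in the first and second panels and at -0.09 in the third, and most genes lie right of 0 in the first and second panels only.

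With Pc and ph dsRNA alone the common subunits stayed close to control. The median change was -0.02, with a range of -0.15 to 0.10 and 7 of 26 above 0. Of the 40 members 0 passed the limma test, where 1.53% of all probe sets passed, and 2 (Rpt4 and Rpt3R) had an unadjusted p under 0.05, as did 10.1% of all probe sets. Without the block 0 passed, where 0.197% of all probe sets did, and 0 had an unadjusted p under 0.05, as 2.29% of all probe sets did. The 95% intervals of the 26 ran from -0.35 to 0.28, that is from 0.79-fold to 1.22-fold.

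The pairs disagreed in direction between replicates, with 20 of 26 higher in Pc/ph cells in replicate 1, 0 of 26 in replicate 2 and 12 of 26 in replicate 3. Other genes also swung between pairs. Of the 899 genes at similar signal, 550, 369 and 546 were higher, with median differences of 0.06, -0.04 and 0.03. Across pairs 0 of the 26 were higher and 3 lower in 3 of 3, where 16.9% of all probe sets were higher and 15.4% lower. Of the 899 genes 30.0% were higher and 21.4% lower. Rpt4, a cap ATPase, had 12.35, 12.78 and 12.88 in Pc/ph cells, against 12.51, 13.00 and 12.95 in control cells. It was lower in each pair, at -0.15 ± 0.07 (limma adjusted p = 0.456). Class medians were -0.04 for the core and -0.02 for the cap.

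Pc/ph+PTIP cells differed from Pc/ph cells by a median of 0.15 over the common subunits, about as much as PTIP cells differed from control cells. The 2 groups also differed in Pc, which was 1.59 higher in Pc/ph+PTIP cells, while Ptip was lower in the replicate 1 pair only. The part of either gene in the subunit differences was not tested. The changes ran from -0.09 to 0.34, 23 of 26 were above 0, and 17 were higher in all 3 pairs while 1 was lower, where 20.7% of all probe sets were higher and 17.7% lower. Of the 899 genes at similar signal 30.9% were higher and 27.6% lower. For the common subunits the medians by replicate were 0.16, 0.17 and 0.08, beside -0.02, 0.07 and 0.01 over the 899 genes. Without the Pc/ph+PTIP replicate 3 array the median of the common subunits was 0.16.

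Prosalpha4 again was the 1 member of 40 to pass the limma test, where 5.5% of all probe sets passed. Its values were 12.20, 12.69 and 12.71 in Pc/ph+PTIP cells, against 11.85, 12.37 and 12.35 in Pc/ph cells. The pair differences of 0.35, 0.32 and 0.36 were nearly equal. The rise was 0.34 ± 0.06 (1.27-fold, 95% interval 0.20 to 0.48, limma adjusted p = 0.0144), with a limma adjusted p of 1 without the block, where 0 members and 0.298% of all probe sets passed. The call was lost without Pc/ph replicate 2 (adjusted p = 0.0515) or 3 (0.084), or Pc/ph+PTIP replicate 1 (0.0564), 2 (0.0745) or 3 (0.0669).

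Prosalpha3, another alpha-ring subunit, had 13.03, 12.99 and 12.98 in Pc/ph+PTIP cells, against 12.79, 12.70 and 12.76 in Pc/ph cells. The groups do not overlap, but the difference of 0.25 ± 0.07 did not pass (limma adjusted p = 0.092). It passed when replicates 2 and 3 were fitted alone, where Prosalpha3 and Prosalpha4 were the 2 members called beside 15.6% of all probe sets. The class medians were 0.19 for the alpha ring, 0.08 for the beta ring, 0.17 for the cap ATPases and 0.16 for the cap non-ATPases. The middle members were Prosalpha7 and Prosalpha5 (0.15 and 0.23), Prosbeta2 and Prosbeta4 (0.05 and 0.11), Rpt3 and Rpt4 (0.15 and 0.19), and Rpn6 and Rpn7 (0.15 and 0.18).

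These 2 comparisons share no array. In both together 15 of the 26 common subunits were higher in 6 of 6 pairs and 0 were lower in 6 of 6. They are Prosalpha2, Prosalpha3, Prosalpha4, Prosalpha5, Prosalpha7, Prosbeta5, Rpt2, Rpt3, Rpt4, Rpn1, Rpn2, Rpn3, Rpn7, Rpn8 and Rpn12. Of all genes 10.9% were higher and 10.2% lower in 6 of 6 pairs, and of the 899 genes at similar signal 22.7% and 19.8%. The changes in the 2 comparisons correlated at r = 0.87 over the 26 genes, against 0.86 over the 899. Genes are not independent replicates.

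**Figure D3:**
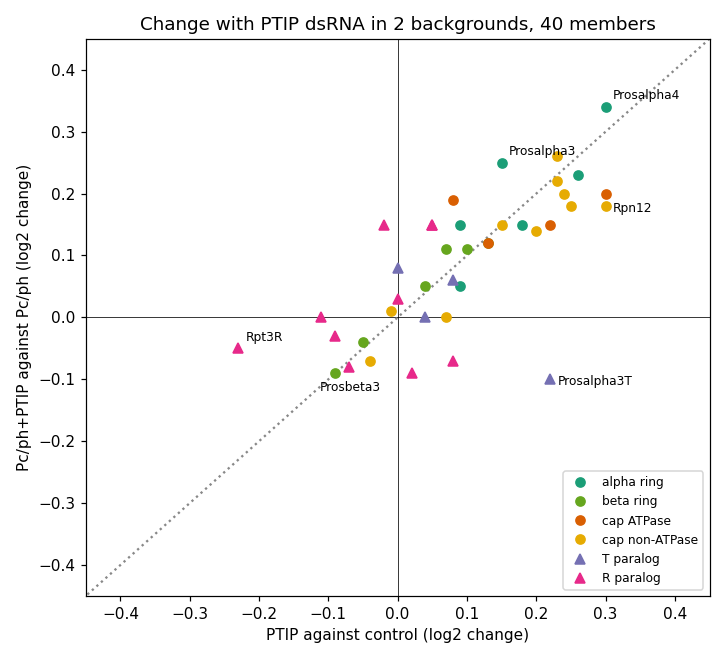
Fitted log2 change of the 40 members in PTIP against control (horizontal axis) and in Pc/ph+PTIP against Pc/ph (vertical axis), coloured by class, circles for common subunits and triangles for paralogs, with equality dotted. Most common subunits lie at upper right, Prosalpha4 farthest out at 0.30 and 0.34, while Prosbeta3 is below 0 on both axes and the paralogs scatter around 0.

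The interaction tests the difference between Pc/ph+PTIP against Pc/ph and PTIP against control. It called 0 of 40 members in limma, where 0.186% of all probe sets were called. Only Prosalpha3T had an unadjusted p under 0.05, as did 4.51% of all probe sets. Without the block 0 members were called, where 0.00533% of all probe sets were, and 0 members had an unadjusted p under 0.05, as 0.852% of all probe sets did. The interaction of the common subunits had a median of -0.01 and a range of -0.12 to 0.11, with 95% intervals from -0.41 to 0.36. For Prosalpha4 the interaction was 0.04 ± 0.09, and for Pc it was 1.65 ± 0.28 (limma adjusted p = 0.0657). The labels name no dsRNA for the control, so a response to dsRNA in general cannot be told apart in PTIP against control.

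Pc/ph+PTIP cells and control cells differed by a median of 0.11 over the common subunits, with 22 of 26 above 0, and 16 higher and 1 lower in 3 of 3 pairs, where 22.1% of all probe sets were higher and 17.3% lower, and of the 899 genes at similar signal 39.4% and 27.0%. Its arrays are shared with the comparisons above. Prosalpha4 was the 1 member of 40 to pass the limma test, where 5.57% of all probe sets passed, at 0.25 ± 0.06 (limma adjusted p = 0.0489). Without the block 0 members passed, where 0.272% of all probe sets did. Cyclic loess (adjusted p = 0.125), the low-signal filter (0.0594), an intensity trend (0.072) and replicates 2 and 3 alone (0.0967) ended the call. Leaving out any of 10 of the 12 arrays ended the call (adjusted p 0.061 to 0.19), and it was kept without PTIP replicate 1 and without Pc/ph replicate 1. Quantile normalization gave 2 members, Prosalpha4 and Rpn12, where 8.19% of all probe sets passed. The median over the 26 was 0.25 in replicate 1, 0.03 in replicate 2 and 0.05 in replicate 3. Over the 899 genes it was 0.04, 0.03 and 0.05, so the medians differed in replicate 1 only. The median fitted change of the 899 was 0.04. Without the Pc/ph+PTIP replicate 3 array the median of the 26 was 0.12.

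Pc/ph+PTIP cells and PTIP cells were close. The common subunits had a median change of -0.04 and a range of -0.09 to 0.05, with 0 higher and 11 lower in 3 of 3 pairs, where 10.2% of all probe sets were higher and 15.5% lower, and of the 899 genes at similar signal 13.0% and 13.9%. Of the 40 members 0 passed the limma test, where 0.032% of all probe sets passed. Prosalpha3T alone had an unadjusted p under 0.05, as did 4.15% of all probe sets. Without the block 0 members passed and 0 had an unadjusted p under 0.05, as 0.623% of all probe sets did. The 95% intervals ran from -0.32 to 0.26.

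Most paralogs stood at background. Beside Rpt3R, only Prosalpha4T2 and Prosbeta2R1 exceeded the highest Y-linked value on all 12 arrays, and both were low. Prosalpha4T2 lay between 6.03 and 6.37, and Prosbeta2R1 had 5.91, 5.64 and 5.91 in PTIP, 5.73, 5.88 and 5.56 in Pc/ph, 5.54, 5.77 and 5.63 in Pc/ph+PTIP, and 5.36, 5.76 and 6.10 in control cells. Neither separated the groups. Prosbeta2R2 exceeded the background on 8 arrays, Rpt4R on 6, Rpn13R on 3, Prosalpha6T and Prosbeta5R2 on 2 each, and Prosalpha3T, Prosbeta4R1 and Rpn12R on 1 each. Prosalpha4T1, Prosbeta4R2 and Prosbeta5R1 exceeded it on 0. The T and R paralogs had median changes of 0.06 and -0.01 in PTIP against control and of 0.03 and -0.02 in Pc/ph+PTIP against Pc/ph, beside 0.14 and 0.15 for the common subunits.

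Rpt3R, a paralog of the cap ATPase Rpt3, was the exception among the paralogs in its level. It had 8.91, 10.44 and 10.53 in PTIP, 9.04, 10.16 and 10.28 in Pc/ph, 8.57, 10.34 and 10.41 in Pc/ph+PTIP, and 9.52, 10.51 and 10.55 in control cells. Control was highest within each replicate number, and the replicate 1 arrays were lowest in every group. Pc/ph against control gave -0.37 ± 0.14 (limma adjusted p = 0.385), with pair differences of -0.48, -0.36 and -0.27. It was the 1 member called there when replicates 2 and 3 were fitted alone, beside 5.68% of all probe sets. Pc/ph+PTIP against control gave -0.42 ± 0.14 (limma adjusted p = 0.142), but its pairs were uneven, at -0.94, -0.18 and -0.14. Rpt3 itself differed by -0.02 ± 0.07 in Pc/ph against control.

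Cap and core genes had different medians on the replicate 1 arrays. Averaged over the 4 groups, replicate 1 minus replicates 2 and 3 had a median of -0.44 over the 14 cap genes and of -0.07 over the 12 core genes, beside -0.43 over all genes and -0.36 over the 899 genes at similar signal. In 13 of 14 cap genes and 3 of 12 core genes all 4 replicate 1 arrays lay below the other 8, as did 56.3% of all probe sets and 40.8% of the 899 genes. The contrast between cap and core was not tested and runs alike in all 4 groups.

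Rpn1, the cap scaffold, showed the common subunits' widest gap, with 11.26, 12.25 and 12.13 in PTIP, 10.60, 11.97 and 12.04 in Pc/ph, 11.11, 12.18 and 12.10 in Pc/ph+PTIP, and 10.77, 12.09 and 12.08 in control cells, a replicate 1 difference of -1.17. Rpn6 and Rpn13, a lid subunit and a ubiquitin receptor, followed at -0.71 each, and Rpt3R had -1.39. Prosalpha4, the called gene, had -0.54, the lowest of the core. Prosbeta3 and Prosalpha2 were higher in replicate 1, by 0.15 and 0.11. RNA quality and the origin of this difference were not tested.

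**Figure D4:**
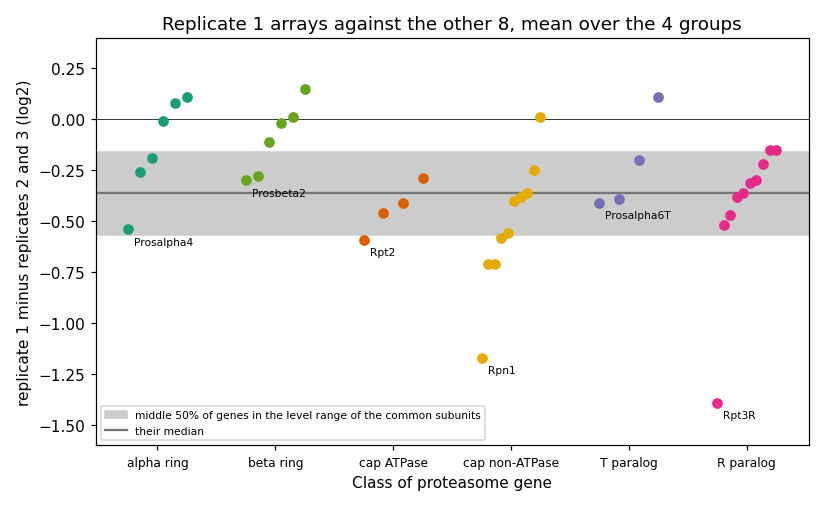
Replicate 1 minus the mean of replicates 2 and 3, averaged over the 4 groups (log2, vertical axis), for each proteasome gene by class (horizontal axis), with the median and middle 50% of the 899 genes at similar signal in grey. Core genes scatter around a median of -0.07, 13 of 14 cap genes are below 0, and Rpn1 and Rpt3R are lowest at -1.17 and -1.39.

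Genes that work with the proteasome were counted in 5 lists, under the same test. The shares of all probe sets called higher and lower were 2.72% and 3.8% in PTIP against control, 0.709% and 0.821% in Pc/ph against control, 2.71% and 2.86% in Pc/ph+PTIP against control, and 2.9% and 2.61% in Pc/ph+PTIP against Pc/ph. Of 8 measured assembly and accessory factors, 1 was called higher and 0 lower in Pc/ph+PTIP against control, and 0 passed in any other comparison. The gene was Pomp, the chaperone of core maturation, with 12.40, 12.61 and 12.61 in Pc/ph+PTIP cells, against 11.94, 12.36 and 12.42 in control cells (0.30 ± 0.07, limma adjusted p = 0.0384). Leaving out any of 10 of the 12 arrays ended that call (adjusted p 0.0558 to 0.168), as did cyclic loess (0.0757) and replicates 2 and 3 alone (0.0805). Sem1, a small cap subunit outside the naming rule, had 0.29 ± 0.09 in PTIP against control (limma adjusted p = 0.0812) and 0.33 ± 0.09 in Pc/ph+PTIP against control (0.0507).

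Among 9 genes of ubiquitin and ubiquitin-conjugating enzymes, Ubc6 fell both in PTIP against control and in Pc/ph+PTIP against control, and 0 others passed. Ubc6, the ubiquitin-conjugating enzyme related to yeast Rad6, had 11.03, 11.63 and 11.19 in PTIP, 11.39, 11.72 and 11.82 in Pc/ph, 11.20, 11.50 and 11.44 in Pc/ph+PTIP, and 11.87, 12.09 and 12.01 in control cells. All control arrays lay above all PTIP and Pc/ph+PTIP arrays. The changes were -0.71 ± 0.10 (limma adjusted p = 0.00347) and -0.61 ± 0.10 (0.00723), and both passed with any array left out. Pc/ph against control gave -0.35 ± 0.10 (limma adjusted p = 0.164).

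Among 8 shuttle and unfoldase genes, 1 was called higher and 2 lower in PTIP against control. Ufd4, named for a yeast ubiquitin ligase, had 9.02, 10.39 and 9.90 in PTIP cells, against 10.02, 10.87 and 10.58 in control cells, and fell by 0.72 ± 0.12 (limma adjusted p = 0.00812), a call kept with any array left out. It was also lower in Pc/ph+PTIP against control, at -0.62 ± 0.12 (limma adjusted p = 0.0155), a call lost without Pc/ph+PTIP replicate 1 (0.0769) or 2 (0.0786) or control replicate 1 (0.0745) or 2 (0.0552). Plap, a Cdc48 cofactor, had 0.30 ± 0.07 in PTIP against control (limma adjusted p = 0.0399), and rngo, the fly Ddi1 and a ubiquitin receptor, had -0.45 ± 0.11 (0.0355). Each was lost when any of 9 of the 12 arrays was left out, with adjusted p up to 0.157 for Plap and 0.104 for rngo, and Plap was also lost after cyclic loess (0.0837) and with an intensity trend (0.0708). Ufd1, another Cdc48 cofactor, fell by 0.31 ± 0.08 in Pc/ph+PTIP against Pc/ph (limma adjusted p = 0.0442), a call lost without any of 8 arrays (0.0588 to 0.221), after quantile normalization (0.0939) or cyclic loess (0.0824) and with an intensity trend (0.102).

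Among 7 regulators of Cnc, Keap1, the adaptor that directs Cnc to a ubiquitin ligase, had 8.64, 8.91 and 8.77 in PTIP, 7.56, 7.70 and 7.86 in Pc/ph, 8.38, 8.64 and 8.58 in Pc/ph+PTIP, and 8.41, 8.96 and 8.74 in control cells. The Pc/ph arrays lay below all others. Keap1 fell by 1.00 ± 0.09 in Pc/ph against control (limma adjusted p = 3.21e-04, and 0.0422 without the block). In Pc/ph+PTIP against Pc/ph it was higher by 0.83 ± 0.09 (limma adjusted p = 8.04e-04, and 0.0937 without the block). Pc had changes of -2.33 and 1.59 in these comparisons, and its part in the Keap1 changes was not tested. The interaction of Keap1, 0.75 ± 0.13, did not pass (limma adjusted p = 0.0589). cnc itself had -0.05 ± 0.10 in Pc/ph against control and -0.08 ± 0.10 in PTIP against control. In the other comparisons of this list rngo, counted above, was the 1 call, in PTIP against control.

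Of 8 measured Cnc target genes, a list that leaves out the proteasome subunits, 0 were called higher in any comparison. In PTIP against control 3 were called lower. They were ref(2)P, the fly p62 and an autophagy receptor (-0.82 ± 0.09, limma adjusted p = 0.00147), GstE1, a glutathione transferase (-0.52 ± 0.10, 0.0168), and Cat, catalase (-0.92 ± 0.20, 0.0232). ref(2)P had 11.57, 12.22 and 12.02 in PTIP cells and 11.66, 12.23 and 12.08 in Pc/ph+PTIP cells, against 12.28, 12.78 and 12.72 in Pc/ph cells and 12.67, 12.88 and 12.70 in control cells. The groups with PTIP dsRNA lay below those without it on every array. ref(2)P also fell in Pc/ph+PTIP against control (-0.76 ± 0.09, 0.00211) and against Pc/ph (-0.60 ± 0.09, 0.00627), and all 3 ref(2)P calls were kept with any array left out. The GstE1 call was lost without control replicate 1 (0.0681) or 3 (0.0719), and the Cat call without control replicate 1 (0.0974) or 2 (0.0544). In Pc/ph+PTIP against Pc/ph, GstE1 (-0.46 ± 0.10, limma adjusted p = 0.0288) and GstD2, another glutathione transferase (-0.62 ± 0.14, 0.036), also fell, and these calls were lost without any of 7 and 8 arrays (0.0506 to 0.138 and 0.052 to 0.174). The median change of this list was -0.30 in PTIP against control and -0.24 in Pc/ph+PTIP against Pc/ph, beside 0.14 and 0.15 for the common subunits, 0.03 and 0.01 for all genes. Of the 20 calls named for members and these lists, 19 were lost without the block, and Keap1 in Pc/ph against control was kept.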

How the data were processed

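The authors deposited log2 RMA signal intensities, 1 value per probe set and array. The submitters' processing notes name RMA and limma, with versions not given in the sources used here. No further normalization was applied. The table holds 18952 probe sets, of which 183 are controls, and the other 18769 were fitted in limma 3.58.1 (R 4.3.3) with 4 group means and the replicate number as a block. Adjustment was Benjamini-Hochberg within each of 6 comparisons, two-sided, called at an adjusted p under 0.05. Errors are SE of the fit, n is 3 arrays per group, and intervals are 95%. A run of the fit on simulated data used changes larger than that of any member, so it does not bear on changes of the size seen here.

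The replicate numbers were checked for pairing: same-numbered arrays correlated at 0.489 to 0.880 over 18 pairs after removal of group means, and other-numbered arrays at -0.842 to 0.784. Much of this is the gap between replicate 1 and the other arrays, and the labels do not say what a number marks. Nothing says that replicates were separate cultures, so a p-value covers array-to-array spread alone, which may be technical. Precision is limited by the number of arrays.

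Symbols came from the platform annotation (1 symbol for 13647 probe sets, several for 402, none for 4720). All 40 members matched the gene table. The members, the lists and the naming rule were chosen with earlier results of these data known. The rule names called members, the middle members of the 4 common classes, paralogs by level, and up to 4 called genes per list and direction. Other genes named for their values or roles (Prosalpha5, Prosalpha3, Prosbeta5, Prosbeta3, Rpt2, Rpt4, Rpn7, Rpn11, Rpn12, Rpn1, Sem1 and cnc among them) were chosen after those were seen. Sequences and coordinates are not given. Alternatives were no block, quantile normalization, cyclic loess, a low-signal filter (upper 50% by mean), an intensity trend, replicates 2 and 3 only, and each array left out in turn.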

Additional observations from a re-analysis of the deposited data

How the results depend on the processing

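The median change of the 26 common subunits kept its sign under every alternative where its size exceeded 0.1, including both other normalizations. With each array left out it ran from 0.09 to 0.18 in PTIP against control, 0.07 to 0.15 in Pc/ph+PTIP against control, 0.11 to 0.16 in Pc/ph+PTIP against Pc/ph, -0.08 to 0.02 in Pc/ph against control, -0.07 to -0.02 in Pc/ph+PTIP against PTIP and -0.05 to 0.04 in the interaction. The median in Pc/ph+PTIP against PTIP was -0.04, and -0.08 after cyclic loess. Counts of called members rest on few genes. Without the replicate block the 1 call in PTIP against control, Pc/ph+PTIP against control and Pc/ph+PTIP against Pc/ph became 0 in each. Quantile normalization gave 7 in PTIP against control and 2 in Pc/ph+PTIP against control, where it called 1791 and 1538 of all probe sets. The last comparison had 0 after cyclic loess, with the low-signal filter, with the intensity trend and with replicates 2 and 3 only. Replicates 2 and 3 only gave 1 member in Pc/ph against control, where 0 were called with all arrays, and 2 in Pc/ph+PTIP against Pc/ph. Leaving out arrays gave 0 to 2 members in PTIP against control and 0 to 1 in each of Pc/ph+PTIP against control and against Pc/ph.

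Probe sets called, in the order PTIP, Pc/ph and Pc/ph+PTIP against control, Pc/ph+PTIP against Pc/ph, Pc/ph+PTIP against PTIP, then the interaction, numbered 1224, 287, 1046, 1033, 6 and 35. Without the replicate block they were 51, 37, 51, 56, 6 and 1, and with replicates 2 and 3 only 2566, 1066, 2194, 2925, 67 and 261. The intensity trend gave 10 in Pc/ph+PTIP against PTIP. Leaving out arrays gave 475 to 1699, 134 to 477, 377 to 1563, 333 to 1561, 4 to 17 and 9 to 80. The cause of these shifts was not tested. No called result changed sign. The uncalled medians near 0 did: that of Pc/ph against control was 0.02 without control replicate 2, and that of the interaction lay on either side of 0. Each member had 1 probe set, so the alternative of another probe set per gene gave no value. The 3 arrays per group and the SE of 0.06 to 0.11 for common subunits limit what could be called to changes well above the median shift.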
